A study of Mus musculus with 16 samples.

Results

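R-spondins are secreted proteins that strengthen Wnt signalling, and the family described here joins the 4 R-spondin genes (Rspo1, Rspo2, Rspo3, Rspo4), their receptors Lgr4, Lgr5 and Lgr6, and the ubiquitin ligases Znrf3 and Rnf43. Members were the probe sets that the platform annotation gave to one of these 9 genes alone, which was 15 of 45101 probe sets, for 9 of 18194 genes named in this way. Of the 9 genes, 6 had 2 probe sets, and Rspo1, Rspo4 and Rnf43 had 1. The family was chosen with earlier results of these arrays known, among them a higher level of Rspo2 in E14.5 mutants, so member values and counts of that comparison are given as a description, with no p-value, and nothing is read from them.

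The arrays profiled the embryonic mouse palate on a C57BL/6J background, in a study of how loss of the kinase Erk2 in neural crest cells affects the palate. The 4 groups were E13.5 mutants (Erk2 fl/fl with Wnt1-Cre, 3 arrays), E13.5 controls (Erk2 fl/fl, 3 arrays), E14.5 mutants (Erk2 fl/fl with Wnt1-Cre, 5 arrays) and E14.5 controls (Erk2 fl/fl, 5 arrays), although the titles name the controls wild-type. Every group thus carried floxed Erk2, and Wnt1-Cre acts in the neural crest, from which the palatal mesenchyme arises, and not in the oral epithelium that covers it. The series text speaks of primary cells and the protocol of tissue. Neither the number of embryos behind an array nor their independence is given in the labels, so a p-value here reflects the spread among these arrays alone, which may be technical. The level of the targeted gene was not analysed here.

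Array medians were 3.42 to 3.45 in E13.5 mutants and 3.39 to 3.40 in E13.5 controls, and 1.63 to 1.65 in E14.5 mutants and 1.63 to 1.66 in E14.5 controls, on the deposited log2 scale. Arrays of one group correlated at 0.991 to 0.997, and 0 pairs were identical. By sex-linked transcripts every E13.5 array was placed as female, while at E14.5 this held for 3 of 5 mutants and 1 of 5 controls. An array was placed so where Xist lay above the mean of the Y-linked transcripts. That rule cannot tell a single sex from a pool of both. All 12 palatal mesenchyme markers were detected, with group means from 4.71 (Osr2) to 10.8 (Prrx1). All 16 oral epithelium markers were detected as well, from 3.79 (Pkp3) to 10.3 (Dsp), in tissue labelled palate mesenchyme. In such bulk RNA, fewer cells of a type and less RNA per cell cannot be told apart.

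As background, ZNRF3 and RNF43 are membrane E3 ubiquitin ligases that remove Frizzled receptors from the cell surface and so dampen Wnt signalling. An R-spondin binds an LGR receptor and a ligase together, which takes the ligase off the membrane and leaves more Frizzled in place. Znrf3, Rnf43 and Lgr5 are themselves known Wnt target genes, and Rspo2 is required for normal craniofacial development in mice.

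Promoter sequences are shown for a ligand and a ligase whose E13.5 mutant arrays lay below all controls (Rspo1 and Rnf43) and for a receptor that differed by less than its error (Lgr4). They run from 250 bases before to 50 bases after a RefSeq transcription start on GRCm38.p6, all on the plus strand, and capitals mark a motif match. Rspo1 lies at chr4:124986180-124986479, Lgr4 at chr2:109917397-109917696, the first Rnf43 start at chr11:87662837-87663136 and the other Rnf43 start at chr11:87699647-87699946.
Rspo1: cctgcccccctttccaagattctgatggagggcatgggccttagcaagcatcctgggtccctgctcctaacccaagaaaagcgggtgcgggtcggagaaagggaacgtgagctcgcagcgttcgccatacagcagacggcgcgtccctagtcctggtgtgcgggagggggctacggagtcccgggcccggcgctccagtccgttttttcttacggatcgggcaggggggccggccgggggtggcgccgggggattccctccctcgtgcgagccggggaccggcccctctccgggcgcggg
Lgr4: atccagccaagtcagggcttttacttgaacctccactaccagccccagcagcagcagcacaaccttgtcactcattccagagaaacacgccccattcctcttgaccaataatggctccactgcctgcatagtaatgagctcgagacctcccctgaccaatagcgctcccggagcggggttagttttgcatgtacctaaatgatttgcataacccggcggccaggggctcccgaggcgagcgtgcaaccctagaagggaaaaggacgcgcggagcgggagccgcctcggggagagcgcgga
Rnf43 first start: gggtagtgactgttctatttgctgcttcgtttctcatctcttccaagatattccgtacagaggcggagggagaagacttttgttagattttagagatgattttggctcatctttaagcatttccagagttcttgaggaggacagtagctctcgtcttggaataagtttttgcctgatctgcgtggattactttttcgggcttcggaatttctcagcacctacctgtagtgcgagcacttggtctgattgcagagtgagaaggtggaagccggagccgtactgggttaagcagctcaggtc
Rnf43 other start: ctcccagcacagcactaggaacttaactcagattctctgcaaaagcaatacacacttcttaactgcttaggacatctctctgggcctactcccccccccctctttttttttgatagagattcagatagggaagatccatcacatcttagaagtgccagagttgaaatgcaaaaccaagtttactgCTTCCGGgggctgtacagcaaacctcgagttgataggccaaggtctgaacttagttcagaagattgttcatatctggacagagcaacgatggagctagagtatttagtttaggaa
The Rspo1 window was 69% G and C with 29 CpG dinucleotides, and the Lgr4 window 58.3% with 18. The Rnf43 windows held 46.7% with 10 CpG and 44.3% with 3. Over 32851 mouse promoters of the same length the medians were 52.7% and 7 CpG. Searched on both strands, the TCF/LEF motif CTTTGAT occurred in none of these windows (3.73% of all promoters hold it), nor did the AP-1 motif TGANTCA (7.81%) or the SP/KLF motif GGGCGG (35.7%). The ETS motif CCGGAAG (8.86%) matched in the other Rnf43 window alone, on the minus strand, and overlapped no other motif searched. RefSeq promoters were matched for 5 of the 9 genes (Rspo1, Rspo4, Lgr4, Lgr6, Rnf43), and a match or its lack is a description of these letters only.

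A probe set was tested where at least 3 arrays reached log2 4, which held for 19740 probe sets and for 8 of the 15 members, 1 each for every gene except Rspo4. The other 7 lay between 1.67 and 3.71 at E13.5 and between 0.54 and 2.01 at E14.5. Rspo4, the R-spondin known for nail development in humans, reached 1.92 on its highest array. Among members, the third-highest array was at 4.21 for Rnf43, just inside the filter, and at 3.59 for the second Lgr6 probe set (1427028_at), just outside. Rnf43 passed through its E13.5 arrays, mostly controls, so its difference there is not independent of the filter.

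**Figure D1:**
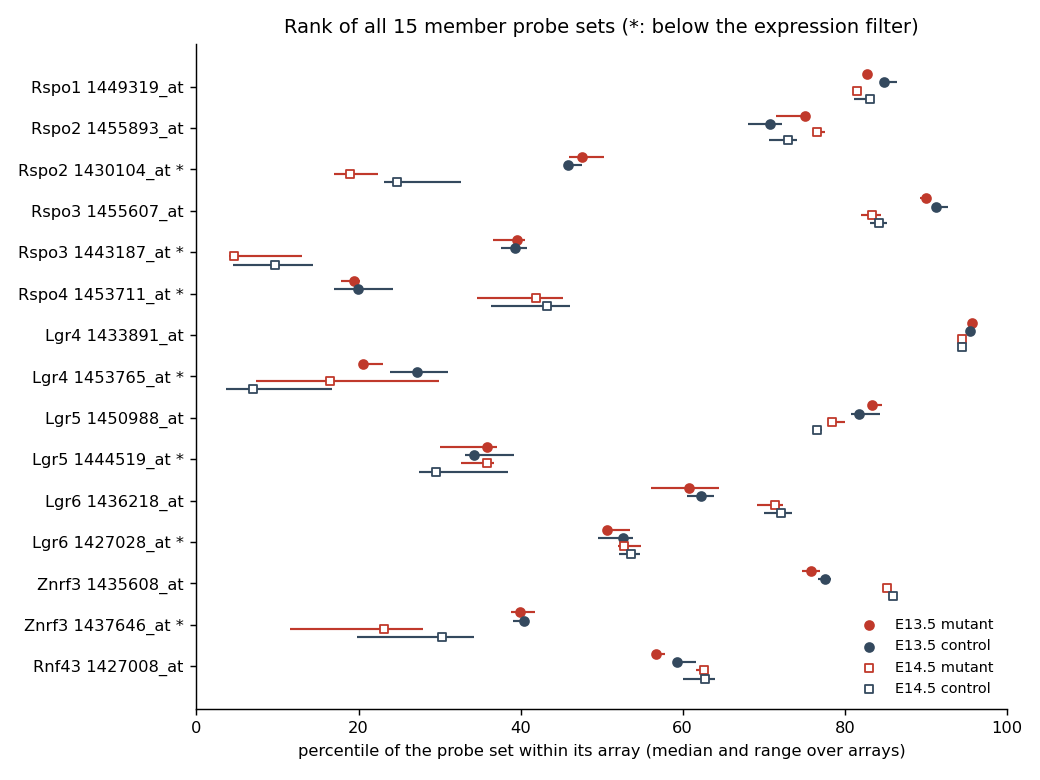
Percentile of each of the 15 member probe sets among all probe sets of its array, as median (symbol) and range (line) over the arrays of E13.5 mutants, E13.5 controls, E14.5 mutants and E14.5 controls. Probe sets with an asterisk were not tested. Probe sets differ in affinity, so positions compare groups within a row and not genes. The second Rspo2 probe set (1430104_at) averaged 0.83 in E14.5 mutants and 0.96 in E14.5 controls on the log2 scale.

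Among the ligands, the tested probe set of Rspo2 had the higher mean in mutants at both stages, and those of Rspo1 and Rspo3 the lower. None of them passed at E13.5, and the E14.5 values are a description. In E14.5 mutants Rspo2 (1455893_at) had log2 values of 5.33, 5.59, 5.42, 5.43 and 5.37, against 4.48, 5.00, 4.36, 4.96 and 4.79 in E14.5 controls. All mutant arrays lay above all control arrays, and controls 1 and 3 were the lowest. The log2 difference was 0.71 ± 0.13 (moderated SE, n = 5 and 5), or 1.63-fold. That difference was 0.72 in batch 1 and 0.70 in batch 2 of the E14.5 arrays. Controls 1 and 3 also had the lowest mean of 10 skeletal muscle markers (5.04 each, against 6.16 to 6.51 in the other controls). The same held for 3 tooth germ epithelium markers (4.29 and 4.55, against 5.57 to 6.18 in the other controls). Without controls 1 and 3 the Rspo2 difference was 0.50. It was 0.74 among males and 0.48 among females, where there was 1 control. Averaged over both Rspo2 probe sets it was 0.29, where the second averaged 0.83 in mutants and 0.96 in controls, near the floor. On that second probe set every mutant (0.79 to 0.87) lay below every control (0.90 to 1.08), opposite to the first.

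At E13.5, Rspo2 had 5.99, 5.60 and 5.92 in mutants, against 5.53, 5.74 and 5.26 in controls. The highest control lay above the lowest mutant. A log2 difference of 0.33 ± 0.17 (95% interval -0.03 to 0.69, adjusted p = 0.611, limma) did not pass. It was 0.20 without E13.5 control 3 and 0.54 with quantile normalization over all arrays. The E14.5 difference minus the E13.5 difference was 0.38 ± 0.21.

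Rspo1 (1449319_at), an R-spondin known for ovary development, had 6.85, 6.85 and 6.79 in E13.5 mutants, against 7.35, 7.13 and 7.14 in E13.5 controls. Every mutant lay below every control, by -0.38 ± 0.09 on the log2 scale (0.77-fold, adjusted p = 0.214, limma), which did not pass over all probe sets. Without E14.5 control 4, which enters only through the shared estimate of spread, it passed (adjusted p = 0.0374). At E14.5 Rspo1 lay at 6.18, 6.18, 6.17, 6.21 and 6.23 in mutants, against 6.41, 6.41, 6.51, 6.12 and 6.50 in controls. Control 4 lay below all mutants, and the other controls above them, and the difference was -0.20 ± 0.07. Within batches it was -0.23 in batch 1 and -0.17 in batch 2, and it was -0.24 among males and 0.06 among females, where control 4 was the only control.

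Rspo3 (1455607_at), known for vascular development in mice, showed a like order at E13.5. It had 7.73, 7.82 and 7.80 in E13.5 mutants, against 8.07, 8.33 and 8.04 in E13.5 controls, without overlap. On the log2 scale the difference of -0.36 ± 0.11 (0.777-fold, adjusted p = 0.376, limma) did not pass, and averaged over both Rspo3 probe sets it was -0.16. At E14.5 it lay at 6.56, 6.48, 6.65, 6.34 and 6.28 in mutants, against 6.71, 6.41, 6.76, 6.60 and 6.47 in controls, and the groups overlapped. The difference was -0.13 ± 0.09 (-0.04 in batch 1 and -0.19 in batch 2).

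**Figure D2:**
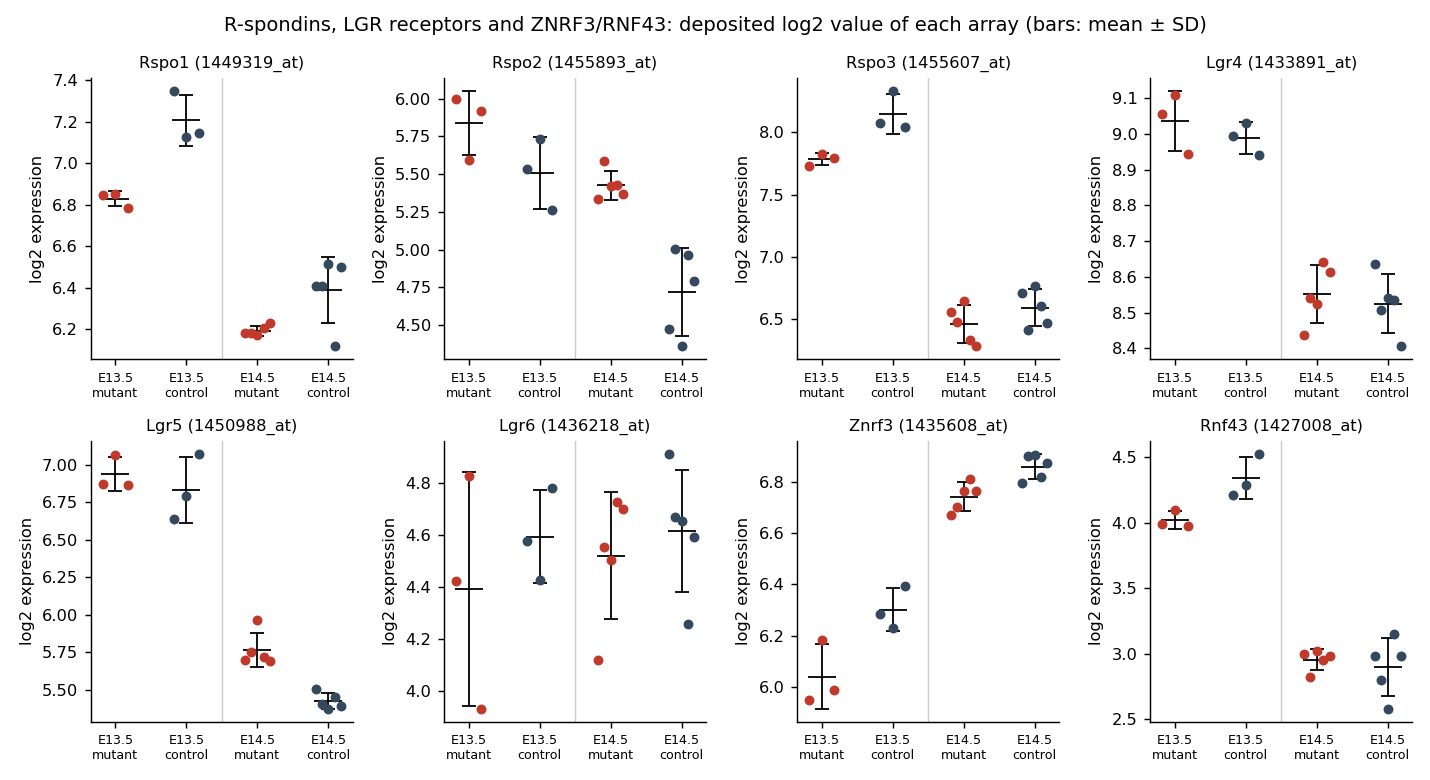
Deposited log2 value of each tested member on each array, for E13.5 mutants and controls (n = 3 and 3) and E14.5 mutants and controls (n = 5 and 5), with bars for mean and SD. Axes differ between panels and do not start at 0. Rspo2 and Lgr5 mutant arrays lie above all controls at E14.5, and Rspo1, Rspo3, Znrf3 and Rnf43 mutant arrays below all controls at E13.5.

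Among the receptors, Lgr5 (1450988_at), which marks stem cells in several epithelia, had 5.70, 5.75, 5.96, 5.72 and 5.69 in E14.5 mutants, against 5.51, 5.41, 5.37, 5.45 and 5.39 in E14.5 controls. No mutant array reached down to a control array. This log2 difference was 0.34 ± 0.08 (n = 5 and 5), and it was 0.27 in batch 1 and 0.38 in batch 2. Averaged over both Lgr5 probe sets it was 0.18. At E13.5 the values were 6.87, 7.07 and 6.87 in mutants, against 6.64, 6.79 and 7.07 in controls, which overlapped. That difference was 0.10 ± 0.10 (95% interval -0.11 to 0.32, adjusted p = 0.825, limma), and it was 0.01 without E13.5 control 1 and 0.22 without E13.5 control 3. Lgr4 (1433891_at), the broadly expressed receptor of the family, averaged 9.04 ± 0.08 in E13.5 mutants and 8.99 ± 0.05 in E13.5 controls (SD), and 8.55 ± 0.08 in E14.5 mutants and 8.53 ± 0.08 in E14.5 controls. Its E13.5 log2 difference was 0.05 ± 0.07, with a 95% interval of -0.10 to 0.20 (adjusted p = 0.892, limma). Lgr6 (1436218_at), known in mice from skin stem cells, ranged from 3.93 to 4.83 in E13.5 mutants and from 4.43 to 4.78 in E13.5 controls, with a difference of -0.20 ± 0.21 (adjusted p = 0.843, limma). This E13.5 value was -0.42 without mutant 2 and 0.03 without mutant 3. At E14.5 it was -0.10 ± 0.16, and its sign differed between batches (-0.45 in batch 1 and 0.14 in batch 2).

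Both ligases lay lower in E13.5 mutants without overlap. Znrf3 (1435608_at) had 5.95, 6.18 and 5.99 in E13.5 mutants, against 6.29, 6.23 and 6.39 in E13.5 controls. Its log2 difference was -0.26 ± 0.07 (0.835-fold, adjusted p = 0.258, limma), and averaged over both Znrf3 probe sets it was -0.09. Rnf43 (1427008_at) had 3.99, 4.10 and 3.97 in E13.5 mutants, against 4.21, 4.29 and 4.52 in E13.5 controls. Its difference was -0.32 ± 0.12 (adjusted p = 0.471, limma), and neither ligase passed. At E14.5 Znrf3 ranged from 6.67 to 6.81 in mutants and from 6.79 to 6.90 in controls, a difference of -0.12 ± 0.05 (-0.16 in batch 1 and -0.09 in batch 2). Rnf43 lay near 3 in both genotypes there (0.06 ± 0.09).

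Over the family at E13.5, 0 of 8 members passed by limma (0.0608% of all tested probe sets did), and 4 had an unadjusted p under 0.05, all lower (8.73% of all in either direction, 6.87% lower). The same 4 members, Rspo1, Rspo3, Znrf3 and Rnf43, had mutant arrays that did not overlap controls, and all 4 lay lower (16.8% of all tested probe sets did not overlap, 12.3% lower). Without Rnf43, which passed the filter through the arrays where it was high, these counts were 3 of 7. The median difference of the 8 members was -0.23 on the log2 scale, and -0.20 without Rnf43, beside -0.04 over all tested probe sets. At E14.5, 1 of 8 members was called (Rspo2, 1.25% of all), and 2 of 8 did not overlap (Rspo2 and Lgr5, 3.72% of all), counts that the choice of the family on this comparison had fixed in part and that support nothing. The difference between stages was called for 0 of 8 members by limma (0.0456% of all), and 1, Rnf43, had an unadjusted p under 0.05 (9.48% of all). That p uses the E14.5 values and a member that passed the filter where it was high, so nothing is read from it either.

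**Figure D3:**
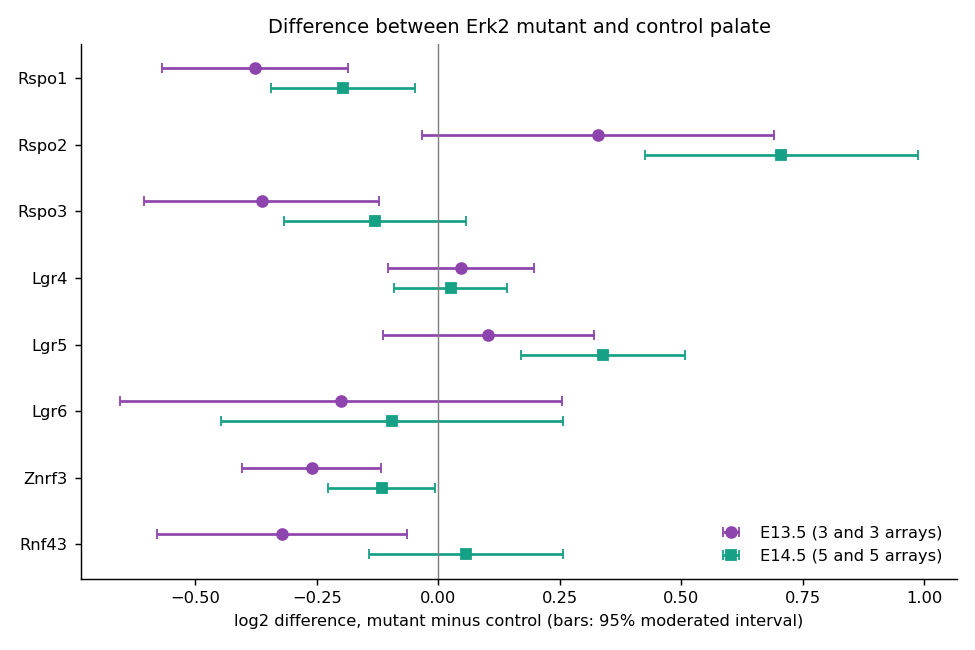
Log2 difference, mutant minus control, of the 8 tested members at E13.5 (3 and 3 arrays) and E14.5 (5 and 5 arrays), with 95% moderated intervals. At E13.5 the values run from -0.38 (Rspo1) to 0.33 (Rspo2). E14.5 values are a description, since the family was chosen on them.

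Levels of cell type markers differed between the same groups. At E13.5 the mean log2 value of 6 osteoblast markers was 4.57 to 5.11 in mutants, against 5.37 to 5.67 in controls. For 12 palatal mesenchyme markers it was 8.36 to 8.39 in mutants, against 8.46 to 8.58 in controls. For 10 muscle markers it was 6.78 to 7.13 in mutants, against 6.12 to 6.42 in controls. No marker of these lists passed at E13.5. Rspo1, Rspo3, Znrf3 and Rnf43 lay lower in the same arrays as the osteoblast and palatal mesenchyme markers. At E14.5, 6 of 16 oral epithelium markers rose (0.674% of all tested probe sets did) and none fell, and all 16 differences lay above 0 (median 0.35). Their mean was 7.74 to 8.06 in mutants, against 7.37 to 7.55 in controls, and these did not overlap, as for Rspo2 and Lgr5. At E13.5 it was 7.44 to 7.57 in mutants, against 7.45 to 7.73 in controls. Of 6 osteoblast markers 3 fell at E14.5 (0.572% of all did). All 10 muscle marker differences lay above 0 at E14.5 as well (median 0.51), and none passed. The muscle mean was 5.79 to 7.25 in mutants, against 5.04 to 6.51 in controls, and controls 1 and 3 were lowest in it as in Rspo2. These controls were lowest in the mean of the tooth germ epithelium markers as well. The part of these cell types in the member differences was not tested.

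**Figure D4:**
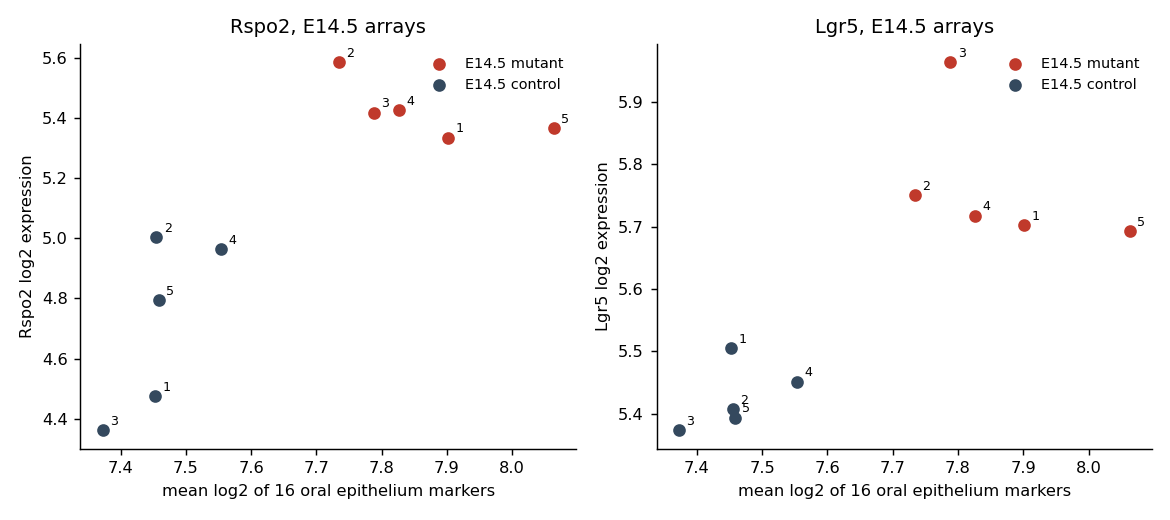
Log2 value of Rspo2 (left) and Lgr5 (right) on each E14.5 array against the mean log2 value of 16 oral epithelium markers on that array, for 5 mutants and 5 controls, numbered by replicate. Mutants and controls form separate clusters on both axes, so no correlation is given.

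Other Wnt pathway genes were counted from lists of receptors, cytoplasmic components, TCF/LEF factors, target genes and secreted antagonists. None of these passed in either genotype comparison. The counts by sign below stand beside all tested probe sets, of which 34.3% lay above 0 at E13.5 (median -0.04). At E14.5, 54.9% of all lay above 0 (median 0.01). Of 9 tested Wnt target genes, 7 lay below 0 at E13.5 (median log2 difference -0.11) and 5 at E14.5 (median -0.09). One of those 7, Sp5, averaged 3.93 in E13.5 mutants and 4.29 in E13.5 controls, near the filter level. At E14.5 it averaged 2.02 in mutants and 1.89 in controls. Its E13.5 sign is thus not independent of the filter. Of 10 secreted antagonists, 9 lay below 0 at E13.5 (median -0.20) and 7 at E14.5 (median -0.17). Of 14 Wnt receptors and co-receptors 8 lay below 0 at each stage (medians -0.06 at E13.5 and -0.01 at E14.5). Of 10 genes of the beta-catenin destruction complex and Dishevelled, 6 lay below 0 at E13.5 and 7 at E14.5, and of 6 TCF/LEF factors and co-activators 4 did at E13.5 and 3 at E14.5.

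Among Wnt target genes, Tnfrsf19, a receptor of the TNF family, was at -0.37 ± 0.08 at E13.5 (adjusted p = 0.188, limma) and -0.22 ± 0.07 at E14.5 (adjusted p = 0.112). Bambi, a TGF-beta pseudoreceptor, was at -0.25 ± 0.06 at E14.5 (adjusted p = 0.0583), and Nkd2, a Wnt feedback inhibitor, at 0.25 ± 0.07 (adjusted p = 0.0998). Among antagonists, Wif1, which binds Wnt proteins, was at -0.37 ± 0.15 at E13.5 (adjusted p = 0.51). Dkk1, which blocks the co-receptor LRP6, was at -0.65 ± 0.18 at E14.5 (adjusted p = 0.093), and Sfrp2, which binds Wnt proteins, at -0.21 ± 0.06 (adjusted p = 0.0965). None of these passed.

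Between stages, E14.5 minus E13.5, 7 of 8 members passed in mutants and in controls as deposited, all but Lgr6. Of all tested probe sets, 85.6% passed in mutants and 86.6% in controls, which is near the members' share. Znrf3 was higher at E14.5 by 0.70 in mutants and 0.56 in controls. Rspo3, Lgr5 and Rnf43 were lower, at log2 differences of -1.32, -1.17 and -1.06 in mutants, against -1.56, -1.41 and -1.44 in controls. Rnf43 reached the filter level on 1 of 3 mutants and 3 of 3 controls at E13.5, and on 0 of 5 of each at E14.5. Its place among the 7 and its lower level at E14.5 are thus not independent of the filter. Its median percentile within arrays was 56.7 in E13.5 mutants and 62.6 in E14.5 mutants, against 59.3 and 62.7 in controls. The median of all probe sets moved by -0.66 in mutants and -0.73 in controls, and whether the stages were normalized together is not stated. Relative to that median, Znrf3 was at 1.36 in mutants and 1.29 in controls. Rspo3 was at -0.66 in mutants and -0.82 in controls, and Lgr5 at -0.51 in mutants and -0.67 in controls. With quantile normalization over all arrays Znrf3 was at 1.31 in mutants and 1.17 in controls and Lgr5 at -0.68 in mutants and -0.78 in controls, while Rspo2 and Rnf43 turned to a higher level at E14.5. Averaged over both Znrf3 probe sets, the direction turned to -0.61 in mutants and -0.58 in controls. The second Znrf3 probe set (1437646_at) lay below the filter and was not tested. Its means were 2.79 in E13.5 mutants and 2.71 in E13.5 controls, and 0.86 in E14.5 mutants and 0.99 in E14.5 controls.

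**Figure D5:**
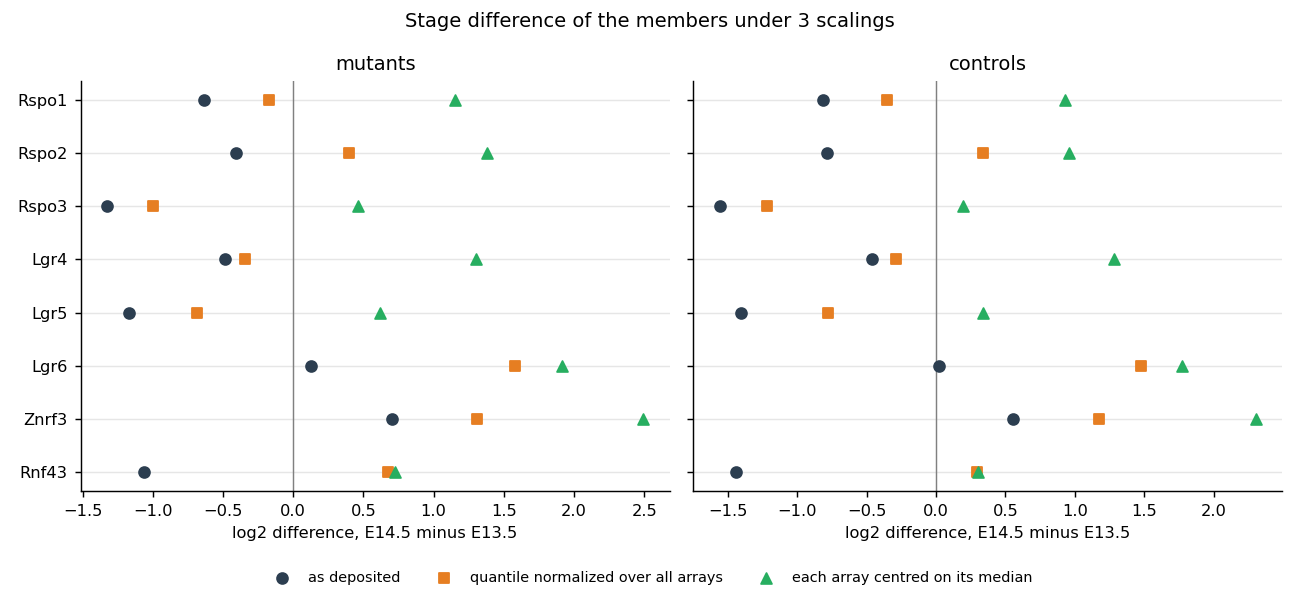
Log2 difference E14.5 minus E13.5 of the 8 tested members in mutants (left) and controls (right), as deposited, after quantile normalization over all arrays, and with each array centred on its median. Znrf3 lies above 0 under all 3 scalings shown, and turns below 0 only with the mean over its probe sets, which is not drawn. That mean takes in a second probe set that lay below the filter. Rspo1, Rspo3, Lgr4 and Lgr5 are below 0 as deposited and after quantile normalization and above 0 when centred.

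Members whose genotype groups did not overlap at one of the stages were compared with other probe sets over 16 arrays. The means of the 3 stage-and-batch blocks were removed, and Pearson r is a description that keeps the genotype difference. The most similar among tested, named, non-member probe sets are listed, with RIKEN clones and predicted genes left out. For Rspo2 they were Btbd9 (0.911), Tec (0.898), Rbfox1 (0.896), Dner (0.878) and Aldh1a3 (0.876). For Lgr5 they were Krt14 (0.851), Fabp5 (0.826), Ctnnd2 (0.822), Bach2 (0.821) and Bnc1 (0.817). Krt14 is among the oral epithelium markers, where another of its probe sets was averaged. For Rspo1 they were L3hypdh (0.898), Ccdc8 (0.898), Ptger4 (0.895), Dixdc1 (0.878) and Ly96 (0.869). For Rspo3 the values ran from 0.863 (Tlcd5) to 0.804 (Ypel2), for Znrf3 from 0.912 (Zbtb1) to 0.888 (Neto2), and for Rnf43 from 0.866 (Cwf19l1) to 0.801 (Fbln1).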

How the data were processed

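Total RNA from mouse palate was hybridised to 16 one-colour arrays. The deposited log2 expression values were made by the authors with GCRMA, per the submitters' processing notes; its version is not given in the sources used here. Probe sets were named through the platform annotation, and 64 control probe sets were left out. One lmFit and eBayes fit (limma 3.58.1, R 4.3.3) held all 16 arrays with a term per group and for the labelled E14.5 batch, over the 19740 probe sets with at least 3 arrays at log2 4. A call was a Benjamini-Hochberg adjusted p under 0.05, and errors are moderated standard errors. The number of arrays limits the precision.

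Named genes were every member probe set, up to 3 genes with the smallest p per pathway list and genotype comparison, of which some are printed, and the 5 probe sets most like a member. Those 5 were taken among tested, named, non-member probe sets, with no gene repeated and RIKEN clones and predicted genes left out. Marker genes of 9 cell types were averaged per array. Members and lists were chosen with earlier results of these data known. Same-numbered mutant and control arrays deviated together by r from -0.38 to 0.17, so the numbers were not taken as pairs. The fit was tested on simulated arrays. Alternatives changed the filter, probe-set rule, normalization, variance model, batch and sex terms, replicate block and arrays included. Sex was inferred from sex-linked transcripts. Promoters came from RefSeq on GRCm38.p6. Python 3.11.15 and matplotlib 3.10.9 drew the figures.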

Additional observations from a re-analysis of the deposited data

Results flagged for a closer look

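Among 16 groups of arrays of the 8 tested members at E14.5, 2 held an array whose gap to the nearest of the others, as a share of the group's range, passed Dixon's 95% critical value. By construction of that value, chance passes it in about 1 in 20 groups. Lgr5 in E14.5 mutant 3 was at 5.96, above the other mutants at 5.69 to 5.75. Rspo1 in E14.5 control 4 was at 6.12, below the other controls at 6.41 to 6.51, and that array was the only control placed as female.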

How the results depend on the processing

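Each result was recomputed under up to 33 of 34 alternatives, and 16 of the 34 leave out 1 array. At E13.5 the number of members called was 0 to 1 when 1 array was left out (1, Rspo1, without E14.5 control 4) and 0 under all others run. At E14.5 it was 1 in the main analysis and 0 to 2 when 1 array was left out: 0 without mutant 5, and 2 without E13.5 control 1, E13.5 control 3 or E14.5 control 4. It was 2 with the filter at log2 5, with the filter met in each stage, with the highest-mean probe set of a gene, with trend and robust variance and without the batch term. It was 0 with the mean over probe sets, with quantile normalization over all arrays, with E14.5 arrays alone, with either batch alone, with sex as a term, without controls 1 and 3, and with the replicate block (Rspo2 log2 difference 0.71). The Rspo2 difference there was 0.29 to 0.79 over 33 alternatives. The family was chosen on this comparison, so these E14.5 counts and values support nothing. The difference between stages' effects was called for 0 members under all 32 alternatives. Without the filter, 14 of 15 member probe sets were called between stages in mutants and 14 of 15 in controls. Of all 45037 probe sets, 40730 were called in mutants and 40936 in controls, so the members' share is near that of all. When 1 array was left out, 6 to 7 of 8 members were called in mutants and 7 to 7 in controls. Of 19740 probe sets, 16262 to 17066 were then called in mutants and 16584 to 17141 in controls. The members called include Rnf43, which passed the filter through E13.5 arrays only. With arrays centred on their medians, the stage differences turned positive, in mutants and controls: Rspo1 1.15 and 0.93, Rspo2 1.38 and 0.96, Rspo3 0.46 and 0.19, Lgr4 1.30 and 1.28, Lgr5 0.62 and 0.34, Rnf43 0.72 and 0.31. With quantile normalization over all arrays Rspo2 turned to 0.39 and 0.34 and Rnf43 to 0.67 and 0.29. With the mean over probe sets, which for each takes in a probe set below the filter, Lgr6 turned to -0.78 and -0.82. Znrf3 turned to -0.61 and -0.58. The cause was not tested. The replicate block gives no stage difference, and fits of 1 stage give only that stage's genotype effect. Signal near the floor limits the 7 probe sets not tested.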

Other observations

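Other cell type markers were measured beside the family. At E13.5, all 6 tested cartilage markers lay above 0 (median log2 difference 0.88), as did all 5 neuron and Schwann cell markers (median 0.29), and none passed by limma. Per array, the cartilage mean was 6.25 to 6.60 in E13.5 mutants and 5.39 to 6.36 in E13.5 controls. The neuron and Schwann cell mean was 4.51 to 5.69 in mutants and 4.39 to 4.78 in controls, and both overlapped. Epyc averaged 4.36 in E13.5 mutants and 3.06 in controls, and Elavl4 3.92 and 2.98. Both averaged below log2 4 at E14.5, so their E13.5 signs may not be independent of the filter. Of 8 endothelium markers 6 lay below 0 at E13.5 and 7 at E14.5 (medians -0.05 and -0.14). Of 5 macrophage markers 2 lay below 0 at E13.5 and 4 at E14.5. Among all tested probe sets, 34.3% lay above 0 at E13.5 and 54.9% at E14.5. At E14.5 the cartilage median was 0.13 and the neuron and Schwann cell median -0.03, and of 3 tooth germ epithelium markers 1 fell (0.572% of all tested probe sets did) and the others lay above 0, with a median of 0.25. Odam, among those above 0, averaged 4.31 in E14.5 mutants and 3.02 in E14.5 controls. At E13.5 it averaged 1.95 in mutants and 1.85 in controls, so its E14.5 sign may not be independent of the filter. None of the endothelium and macrophage markers passed at either stage.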
